A study of Mus musculus with 5 samples.

Results

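The 7 genes described here encode the natriuretic peptides of the heart (Nppa and Nppb), their receptors (Npr1, Npr2 and Npr3) and the proteases that release the active peptides (Corin and Furin). They were chosen by symbol, and all 7 were found among the 49315 genes of each count table. Poly-A RNA libraries had been made from 10 mg of frozen tissue of mouse hearts that the labels call whole. The 3 HFHS libraries came from mice fed a high-fat, high-sucrose diet for 18 weeks, and the 2 chow libraries came from mice fed standard chow. Iron dextran had been injected once into a vein of every mouse of both diets 48 hours before the hearts were collected, so no heart without iron was compared. Strain, sex and age are not stated in the labels. The labels do not say whether each library is a different mouse, so the p-values below reflect library-to-library spread, which may be technical. Library totals lay between 14362766 and 17774735 counts, and levels are given in CPM, counts scaled to the TMM-adjusted library size, except sums over marker lists, which are scaled to the total count.

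Heart muscle cells make atrial natriuretic peptide (ANP, from Nppa) and B-type natriuretic peptide (BNP, from Nppb) as longer precursors and secrete more of them when the wall is stretched. Corin, a protease on the surface of heart muscle cells, cleaves pro-ANP, and furin, a protease of the secretory pathway, cleaves pro-BNP. Both peptides act through NPR1, a receptor whose cell-internal part makes cyclic GMP, which relaxes vessels, raises salt excretion and restrains growth of heart muscle. NPR2 is the matching receptor for C-type natriuretic peptide, and NPR3 takes up all of these peptides and has them broken down, which is why it is called the clearance receptor.

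Nppb (ENSMUSG00000029019) and Nppa (ENSMUSG00000041616) are neighbours on mouse chromosome 4 of the GRCm38 build, at 147985788 to 147987205 and 148000722 to 148002079 on the plus strand, with 13516 bases between them. Their sequences upstream of the start are shown because both genes stood out in the same library, chow replicate 1, and because the transcription factors known to bind such sequences were measured too. The first sequence is the 250 bases before the RefSeq start of Nppa (chr4:148000472-148000721), and the next are short stretches before the RefSeq start of Nppb (chr4:147985793-147985822 and chr4:147985859-147985883), all from RefSeq's GRCm38.p6 and on the plus strand. Capitals mark the motifs GATAA (bound by GATA factors), CATTCC (the M-CAT box of TEAD factors), AAGTG (core of the NKX2-5 site) and TATAAA, read on both strands, so that TTATC is GATAA and GGAATG is CATTCC on the minus strand; none of the marked motifs overlap.
Nppa upstream: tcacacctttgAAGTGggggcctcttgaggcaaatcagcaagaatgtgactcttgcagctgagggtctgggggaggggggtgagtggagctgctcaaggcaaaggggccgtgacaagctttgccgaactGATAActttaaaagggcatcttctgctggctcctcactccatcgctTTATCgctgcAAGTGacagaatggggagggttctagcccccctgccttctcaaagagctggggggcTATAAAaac
Nppb M-CAT and GATA: caGGAATGcagctGATAAatcagaGATAAc
Nppb TATA: tcagccccagTATAAAaggcagagg

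In the 250 bases before the RefSeq start, Nppa and Nppb each held 2 GATAA motifs. CATTCC was present before Nppb, 105 bases from the start, and not before Nppa, whereas AAGTG was present 2 times before Nppa and not before Nppb. No exact CArG box (the site of the factor SRF, searched as CCWWWWWWGG, where W is A or T) was found in either window. Neither was an exact MEF2 site (YTAWWWWTAR, where Y is C or T and R is A or G). Near matches were not searched. The Nppa window holds ctttaaaagg, which differs from the CArG pattern only in having CT in place of CC. Over the 32851 promoter windows of the same length in the RefSeq table, 22.6% held GATAA, 12.6% CATTCC, 40.7% AAGTG, 12.4% TATAAA, 1.47% a CArG box and 2.92% a MEF2 site. GENCODE M21 places the start of Nppb 112 bases further upstream than RefSeq, so the Nppb stretches lie within its first exon there. A match describes letters only; no binding was measured.

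Markers that define atrial muscle, where Nppa is most highly expressed, were at or near 0. The myosin light chain gene Myl7 had 0 to 7 counts per library, Sln (a calcium pump inhibitor) 0 or 1, Bmp10 0 to 3 and Mybphl 0 to 2. The ventricular light chain Myl2 was at 6732 to 7110 CPM in HFHS and 9782 and 9942 CPM in chow libraries, and the ventricular transcription factor Irx4 at 20.7 to 23.5 CPM and 19.8 and 20.1 CPM. The summed level of all 9 atrial markers was 113.0 to 127.9 CPM in HFHS and 120.2 to 143.3 CPM in chow libraries; most of it came from Kcnj3 and Kcna5, potassium channel genes. The atrial light chain gene Myl4 was at 1.12, 0.79 and 0.811 CPM in HFHS and 1.73 and 2.00 CPM in chow libraries. Of the 5 atrial markers that could be tested, 3 were called lower (Myl4, Kcna5 and Stard10) and none higher; without HFHS replicate 3 or without chow replicate 2, 1 was called lower and 1 higher. Their part in the values of Nppa and Nppb was not tested. Chow replicate 1, the chow library with the higher Nppa, had 0 Myl7, 0 Sln, 2 Bmp10 and 2 Mybphl counts. Chow replicate 2 had 4 Myl7, 1 Sln, 0 Bmp10 and 0 Mybphl counts. In chow replicate 1, 3 counts are worth 0.162 CPM.

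Of the 7 genes, 4 rose (Npr2, Npr3, Corin and Furin), 1 fell (Npr1) and the peptide genes Nppa and Nppb did not pass, by edgeR's quasi-likelihood test at a Benjamini-Hochberg adjusted p of 0.05. Over all 14221 genes tested, 38.1% passed, 19.4% higher and 18.7% lower, so a call by itself is common in this comparison. The same shares are the background for every count of called marker or list genes in this report. The libraries of the groups did not overlap for 5 of the 7 genes, 4 with HFHS above chow and 1 below, against 58.5% of all tested genes, 29.2% above and 29.4% below. With scaling by total counts only, all genes split into 2053 higher and 3429 lower, against 2756 and 2661 with TMM. All 7 passed the filter on low counts.

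**Figure D1:**
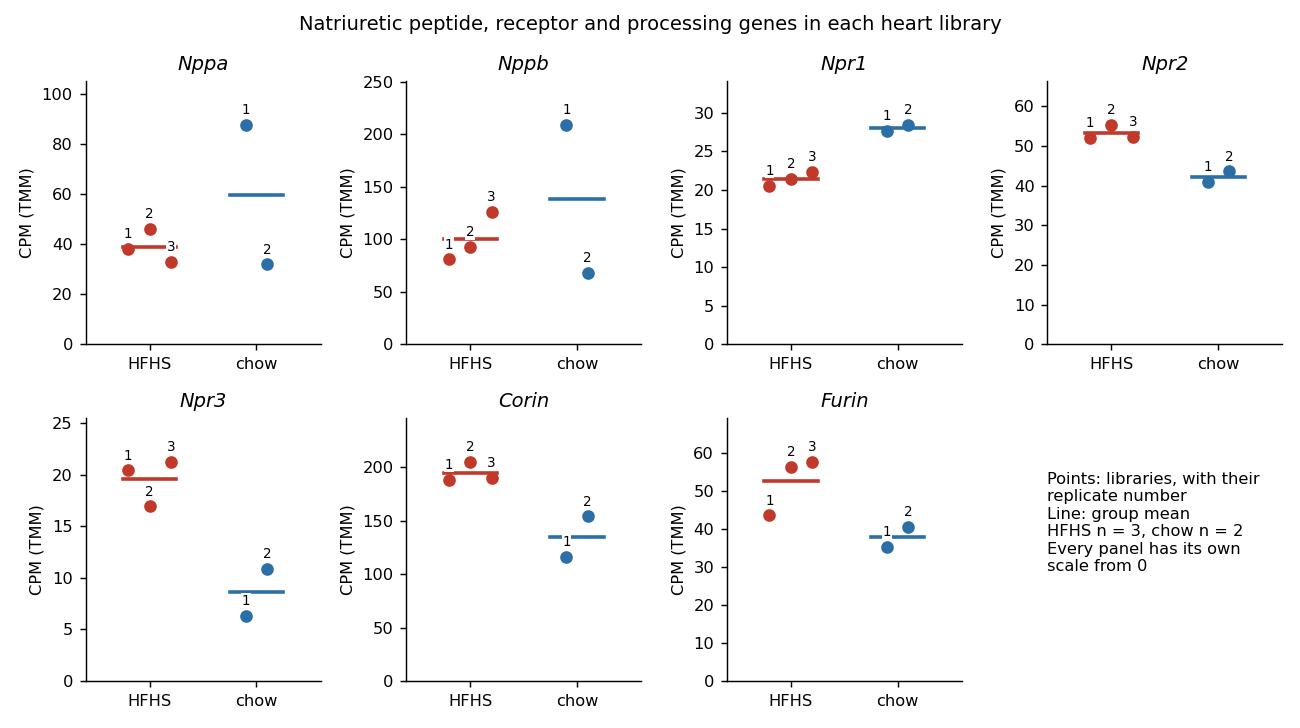
Level of each gene in CPM (vertical axes, each from 0) in the HFHS (red) and chow (blue) libraries; points are libraries with their replicate number and lines are group means. The receptor and protease genes separate by diet, while Nppa and Nppb are high in chow replicate 1, at 87.5 and 208.9 CPM, and low in chow replicate 2.

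The peptide genes had no diet difference larger than their spread, and the chow libraries differed from each other. Nppa was at 38.0, 46.1 and 32.7 CPM in HFHS replicates 1, 2 and 3, and at 87.5 and 31.8 CPM in chow replicates 1 and 2. The HFHS libraries thus lay close together just above chow replicate 2, and chow replicate 1 stood above all of them. Nppb was at 80.8, 92.7 and 125.8 CPM in HFHS libraries and at 208.9 and 68.0 CPM in chow libraries, with the same arrangement. The log2 fold change of Nppa was -0.62 (SE 0.274, adjusted p = 0.0905) and that of Nppb was -0.47 (SE 0.303, adjusted p = 0.239). Both signs depended on which chow library was kept. Without chow replicate 1, Nppa was at a log2 fold change of 0.29 (adjusted p = 0.155) and Nppb at 0.55 (adjusted p = 0.0167), and leaving out chow replicate 2 gave -1.17 (adjusted p = 1.67e-06) and -1.07 (adjusted p = 1.92e-05). Counts of 484 to 1617 for Nppa and 1225 to 3858 for Nppb lie behind these values, so the gap between the chow libraries was beyond counting error.

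The gap between the chow libraries was unusual in size. Chow replicate 1 had 2.75 times the Nppa and 3.07 times the Nppb of replicate 2, while the HFHS libraries spanned 1.41 times for Nppa and 1.56 times for Nppb from lowest to highest. Only 98 of the 14221 tested genes, 0.689%, had a gap in either direction at least as large as that of Nppa, and 70 genes, 0.492%, one as large as that of Nppb, each count including the gene itself. Among the 10685 genes averaging 4 CPM or more in at least 1 diet, Nppb ranked 3 and Nppa ranked 6 by excess in chow replicate 1. The receptors and proteases behaved otherwise: chow replicate 1 was at 0.973 times replicate 2 for Npr1, 0.937 for Npr2, 0.874 for Furin, 0.753 for Corin and 0.582 for Npr3. The library with the most peptide RNA therefore had the least Npr3, Corin and Furin of the 5.

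**Figure D2:**
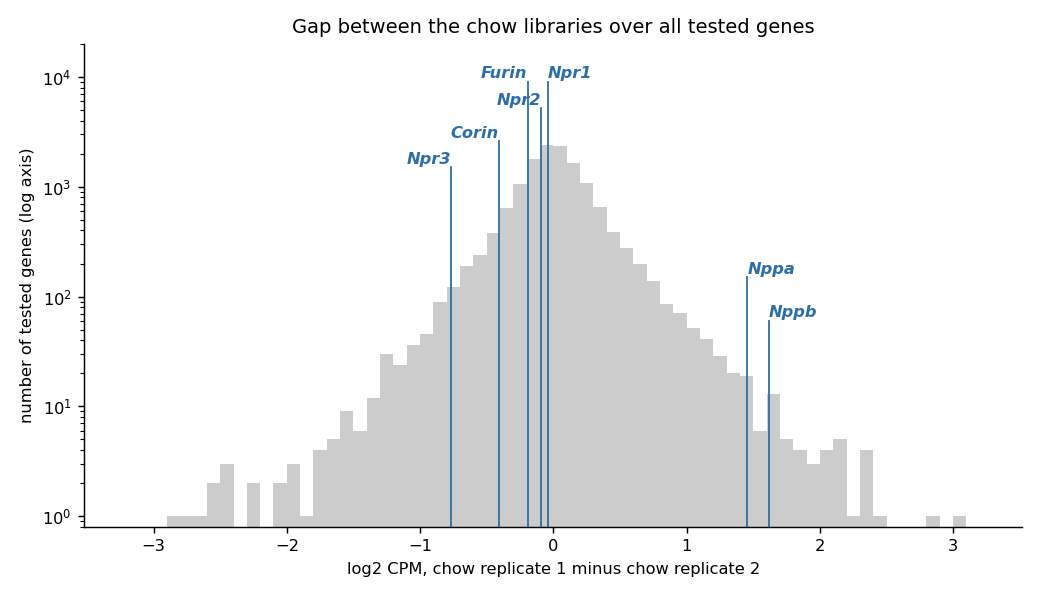
Number of tested genes (vertical log axis) by the difference in log2 CPM between chow replicate 1 and chow replicate 2 (horizontal axis, bins of equal width), with lines at the 7 genes. Nppa at 1.46 and Nppb at 1.62 lie in the far right tail, and Npr3 at -0.77 on the left.

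The ratio between the peptide genes was alike in the chow libraries and varied among the HFHS libraries. Per length of exon, Nppb was 2.36, 2.23 and 4.26 times Nppa in HFHS replicates 1, 2 and 3 and 2.64 and 2.37 times Nppa in chow replicates 1 and 2. HFHS replicate 3 stood apart, with the highest Nppb and the lowest Nppa of its group. The mean log2 ratio was 1.49 ± 0.518 in HFHS (SD, n = 3) and 1.32 ± 0.112 in chow libraries (SD, n = 2), a difference of 0.17 with an exact two-sided permutation p of 1. With 3 against 2 libraries that test cannot give a p below 0.1.

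The genes described around the peptide locus did not share the gap between the chow libraries. Of the annotated genes within 100 kb, the mitochondrial fusion gene Mfn2 rose, at 738.8, 789.1 and 702.4 CPM in HFHS against 444.7 and 447.9 CPM in chow libraries (log2 fold change 0.74, adjusted p = 3.47e-06). The chloride transporter gene Clcn6, next to Nppa, averaged 10.7 ± 0.394 CPM in HFHS (SD, n = 3) and 9.59 ± 0.523 CPM in chow libraries (SD, n = 2), with an edgeR adjusted p of 0.364. Plod1, 2510039O18Rik and Agtrap did not pass either, with log2 fold changes of -0.09 to 0.12. The antisense gene Gm13054, which overlaps Nppa, had 2 to 14 counts per library, so even if all of its reads were shared they would be few beside those of Nppa. Draxin and the predicted genes and pseudogenes Gm13156, Gm13207, Chchd2-ps and Gm13201 had too few counts to test.

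The clearance receptor gene changed most. Npr3 (ENSMUSG00000022206, chromosome 15 from 11839896 to 11905674, minus strand) was at 20.4, 16.9 and 21.3 CPM in HFHS libraries and at 6.33 and 10.9 CPM in chow libraries. Every HFHS library was above both chow libraries. It rose 2.28-fold, a log2 difference of 1.19 (SE 0.183, adjusted p = 0.000171). Its log2 fold change shrank to 0.85 when chow replicate 1 was left out and was 1.63 when chow replicate 2 was, and it passed in both. In mouse hearts Npr3 is known as a gene of the endocardium and it is also strong in fat. Fat markers were nearly absent, with a summed level of 0.302 to 0.663 CPM for all 6 in HFHS and 0 to 0.115 CPM in chow libraries. Of 6 tested endocardial markers, 3 were called higher (Vwf, Plvap and Cgnl1) and 2 lower (Cytl1 and Tmem100), Hapln1 was at 0 or 1 counts, and the summed level of all 7 was 97.0 to 103.8 CPM in HFHS and 73.6 and 106.5 CPM in chow libraries. Vwf was at 38.3 to 39.4 CPM in HFHS and 19.9 and 34.5 CPM in chow libraries, lowest like Npr3 in chow replicate 1, and lost its call without that library (adjusted p = 0.241) and without any single HFHS library (adjusted p of 0.0502 to 0.0671). Each of the other called endocardial markers lost its call without 1 or more libraries too: Cgnl1 (adjusted p = 0.0997) and Plvap (0.176) without chow replicate 1, Tmem100 (0.0932) and Cytl1 (0.305) without chow replicate 2, and also Plvap without HFHS replicate 1 (0.094) and Cytl1 without HFHS replicate 1 (0.095) or 2 (0.0766). The part of endocardium in the rise of Npr3 was not tested. In bulk tissue, fewer cells of a type and less RNA per cell cannot be told apart.

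The main signalling receptor moved the other way. Npr1 (ENSMUSG00000027931, chromosome 3 from 90450591 to 90465866, minus strand) was at 20.5, 21.4 and 22.4 CPM in HFHS libraries and at 27.7 and 28.4 CPM in chow libraries. All HFHS libraries were below both chow libraries, and the libraries of each group lay close together. The log2 fold change was -0.39 (SE 0.0947, adjusted p = 0.005), a level 1.31-fold lower in HFHS libraries, and it passed without any 1 library and with the length offsets described below. Npr1 is expressed in endothelium, smooth muscle and heart muscle. Of 8 endothelial markers, 5 were called lower in the same libraries and none higher. Their summed level was 930.8 to 958.5 CPM in HFHS and 1174 to 1205 CPM in chow libraries. Of 7 pericyte and smooth muscle markers, 3 were called lower and none higher. Their sum was 876.5 to 914.2 CPM in HFHS and 1156 to 1207 CPM in chow libraries. Most of it came from Rgs5, called lower, at 705.6 to 751.7 CPM in HFHS and 946.2 and 903.7 CPM in chow libraries. Pdgfrb and Myh11 went the other way, with all HFHS libraries above both chow libraries, and did not pass (edgeR adjusted p of 0.0623 and 0.0649). Acta2, among the 3 called lower (adjusted p = 0.041), lost its call without HFHS replicate 1 (0.166) or 2 (0.146). It also lost it with DESeq2 (adjusted p = 0.0716), and with the length offsets its log2 fold change was 0.01. The part of these cells in the lower Npr1 was not tested.

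As a ratio within each library, which needs no library size, Npr3 per exon length was 0.686, 0.547 and 0.657 times Npr1 in HFHS replicates 1, 2 and 3 and 0.158 and 0.264 times Npr1 in chow replicates 1 and 2. The groups did not overlap. The log2 ratio averaged -0.67 ± 0.174 in HFHS (SD, n = 3) and -2.29 ± 0.524 in chow libraries (SD, n = 2), a difference of 1.62. The exact two-sided permutation p was 0.1, the smallest that 3 against 2 libraries allow.

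Npr2 (ENSMUSG00000028469, chromosome 4 from 43631935 to 43651244, plus strand) was at 52.0, 55.3 and 52.2 CPM in HFHS libraries and 40.9 and 43.6 CPM in chow libraries. The groups did not overlap, and Npr2 rose 1.26-fold (log2 fold change 0.33, SE 0.082, adjusted p = 0.0054). Npr2 is a receptor of stromal and vascular cells as well as muscle; all 7 fibroblast markers fell in the same libraries, with sums of 715.0 to 752.1 CPM in HFHS and 1155 to 1237 CPM in chow libraries. Without HFHS replicate 2, 4 of them passed, as Col1a1 (adjusted p = 0.154), Pdgfra (0.0558) and Tcf21 (0.145) did not. The part of fibroblasts in the level of Npr2 was not tested. The gene of its ligand, Nppc, had 0 counts in all 5 libraries, and 3 counts are worth 0.162 to 0.215 CPM in these libraries. Ostn, whose product osteocrin binds NPR3, had 0 to 2 counts per library.

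Both protease genes rose. Corin (ENSMUSG00000005220, chromosome 5 from 72300025 to 72504473, minus strand), the pro-ANP convertase, was at 188.5, 205.5 and 190.2 CPM in HFHS libraries and at 116.0 and 154.1 CPM in chow libraries. The HFHS libraries were alike and above both chow libraries, which differed by more. It rose 1.44-fold (log2 fold change 0.53, SE 0.102, adjusted p = 0.00102). Without chow replicate 1 the log2 fold change was 0.34, still past the threshold. Furin (ENSMUSG00000030530, chromosome 7 from 80388585 to 80405436, minus strand) was at 43.6, 56.4 and 57.8 CPM in HFHS libraries and at 35.4 and 40.5 CPM in chow libraries. HFHS replicate 1 lay close to chow replicate 2, but the groups did not overlap. It rose 1.38-fold (log2 fold change 0.47, SE 0.117, adjusted p = 0.00567). The log2 ratio of Corin to Furin per exon length was 2.66 ± 0.199 in HFHS (SD, n = 3) and 2.59 ± 0.153 in chow libraries (SD, n = 2), with an exact two-sided permutation p of 0.7, so no shift between the proteases was detectable.

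Corin is a gene of heart muscle cells. Of 8 general heart muscle markers 4 were called higher (Myh6, Ryr2, Actn2 and Myom1) and 2 lower (Tnnt2 and Tnni3). All 8 summed to 48797 to 52232 CPM in HFHS and 40738 and 47058 CPM in chow libraries. Myh6 was the largest part, at 21091 to 24619 CPM in HFHS and 11643.1 and 14950.5 CPM in chow libraries. Tnnt2, the next largest, went the other way, at 7806 to 8666 CPM in HFHS and 9202 and 9807 CPM in chow libraries. Its call (edgeR adjusted p = 0.0399) was lost without HFHS replicate 1 (0.0825), 2 (0.11) or 3 (0.0907). DESeq2 did not make it either (adjusted p = 0.052). The sum thus follows Myh6 and does not stand for the list as a whole. The share of muscle cells in the rise of Corin was not tested.

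Fold changes followed exon length across all tested genes, which matters for a set with short ligand genes and long receptor genes. The median log2 fold change went up from -0.47 in the shortest of 10 equal bins, with exons of at most 1436 bases, to 0.32 in the longest. Nppa, with 865 bases of exon, and Nppb, with 781, belong to the shortest bin; the log2 fold change of Nppa lay 0.15 below its median of -0.47, and that of Nppb lay at it. By contrast, Npr3 (6927 bases) was 1.04 above the median of its own bin, higher than 99.0% of the genes there. Corin (5400 bases) was 0.45 above, higher than 87.8% of its bin, and Npr2 (4667 bases) 0.30 above, higher than 80.5%. Furin, with 9178 bases the longest of the set, was 0.26 above a median that was itself 0.21. Npr1 (4783 bases) was 0.46 below the median of its bin, where 11.96% of genes were lower still. When each library was given offsets from its own trend on exon length, Furin was at 0.23 and no longer passed (adjusted p = 0.153), whereas Npr3 (1.02), Corin (0.44), Npr2 (0.29) and Npr1 (-0.44) kept their calls, and Nppa and Nppb were at -0.19 and -0.04.

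**Figure D3:**
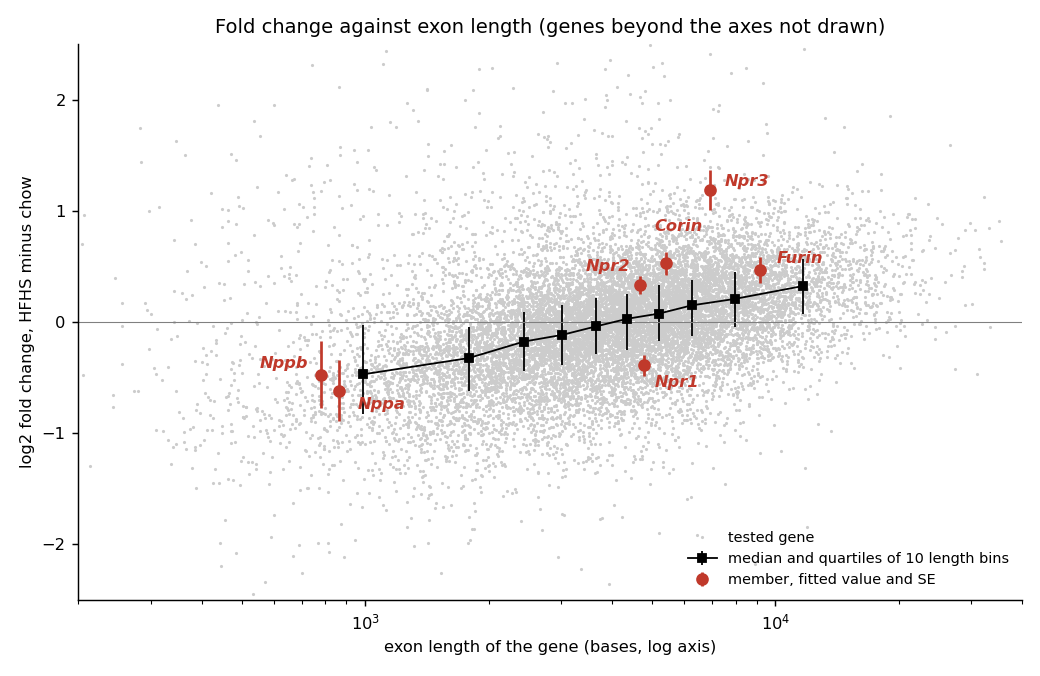
Log2 fold change, HFHS minus chow (vertical axis), against exon length in bases (horizontal log axis) for tested genes (grey), with the median and quartiles of 10 equal bins (black) and the 7 genes with their SE (red). Nppa and Nppb sit on the trend of short genes, Npr3 lies far above the trend and Npr1 below it.

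**Figure D4:**
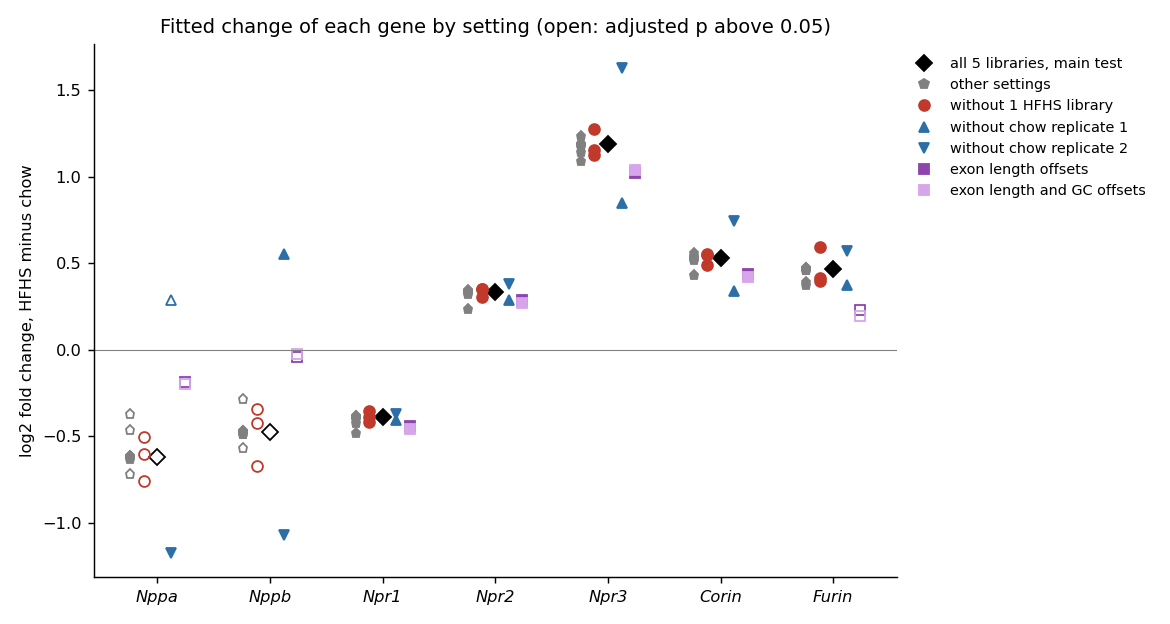
Fitted log2 fold change of each gene (vertical axis) under each setting; filled symbols have an adjusted p of at most 0.05 and open symbols do not. Nppa and Nppb lie on either side of 0 depending on the chow library left out, and Furin loses its call with the length offsets.

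Per kilobase of exon, the order of levels was Nppb, Nppa, Corin, Npr2, Furin, Npr1 and Npr3 in HFHS libraries. Nppb was at 127.7 ± 29.8 CPM per kilobase in HFHS (SD, n = 3) and 177.3 ± 127.5 in chow libraries (SD, n = 2). Nppa was at 45.0 ± 7.79 in HFHS and 69.0 ± 45.5 in chow libraries, and Corin at 36.1 ± 1.74 in HFHS and 25.01 ± 4.99 in chow libraries. Nppa and Corin overlapped among the HFHS libraries and did not among the chow libraries. Npr2 was at 11.4 ± 0.398 in HFHS and 9.05 ± 0.414 in chow libraries, apart from its neighbours in both. Furin was above Npr1 in each HFHS library, at 5.73 ± 0.853 against 4.48 ± 0.191 CPM per kilobase, and below it in both chow libraries, at 4.13 ± 0.392 against 5.87 ± 0.115; this change of order was not tested. Npr3 was the lowest of the set in every library, at 2.82 ± 0.332 in HFHS and 1.24 ± 0.465 CPM per kilobase in chow libraries.

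Among enzymes that act on these peptides or their proteases, Ide rose and Pcsk6 fell. Of 13 listed genes of other peptides, granule proteins and processing or degrading enzymes, 7 could be tested, and 4 rose, 1 fell and 2 did not pass (71.4% called, against 38.1% of all genes), with a median log2 fold change of 0.34 against -0.01 over all tested genes. Ide, insulin-degrading enzyme, which also cuts ANP, rose 1.74-fold, at 185.1, 178.3 and 171.7 CPM in HFHS and 112.7 and 92.8 CPM in chow libraries (adjusted p = 1.02e-05). Mme, neprilysin, the membrane peptidase that degrades natriuretic peptides, was at 14.4 to 15.8 CPM in HFHS and 11.9 and 12.1 CPM in chow libraries and rose 1.28-fold (adjusted p = 0.0244). Pam, an amidating enzyme and membrane protein of atrial secretory granules, rose 1.23-fold, and Galnt1, which attaches sugars to secreted proteins, 1.21-fold. Pam lost its call without HFHS replicate 2 (adjusted p = 0.0528) and was at a log2 fold change of -0.02 with the length offsets; Galnt1 lost its call without HFHS replicate 2 (0.0738) or 3 (0.0513), without chow replicate 2 (0.157) and with the offsets (0.128). Pcsk6, the convertase that activates corin, fell: it was at 72.0, 59.8 and 63.5 CPM in HFHS and 86.3 and 79.6 CPM in chow libraries, 1.27-fold lower (adjusted p = 0.00655). With the exon length offsets, calls in this list went down to 1 higher and 1 lower, and Mme was at a log2 fold change of 0.05 (adjusted p = 0.77); Ide stayed past the threshold. Mme also lost its call without either chow library (adjusted p of 0.0932 with replicate 1 left out and 0.0689 with replicate 2 left out) and without HFHS replicate 1 (0.0693) or 3 (0.0559).

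Genes that make, break down or respond to cyclic GMP were called about as often as all genes. Of 17 tested, 3 rose, 4 fell and 10 did not pass (41.2% called, against 38.1% of all genes), with a median log2 fold change of -0.13 (0.04 without HFHS replicate 3). The number that fell was 2 without chow replicate 2 and 6 with scaling by total counts only. Prkg1, the cyclic GMP-dependent kinase, was at 7.18, 7.03 and 8.04 CPM in HFHS and 2.00 and 1.11 CPM in chow libraries (log2 fold change 2.24, SE 0.25, adjusted p = 1.08e-05). Ppp1r12a, the myosin phosphatase subunit that this kinase binds, rose 1.82-fold. Rgs2 and Rgs4, which shorten signalling by G-protein-coupled receptors, fell: Rgs2 was at 20.0, 21.5 and 16.5 CPM in HFHS and 29.8 and 52.8 CPM in chow libraries, and Rgs4 was at 19.9 to 21.8 CPM and 30.4 and 29.3 CPM. Rgs2 was at a log2 fold change of -1.10, or -0.63 when chow replicate 2 was left out, and passed in both. Among phosphodiesterases that break down cyclic GMP, Pde3a, which is strong in heart muscle, was at 136.2, 129.3 and 100.1 CPM in HFHS and 76.4 and 96.6 CPM in chow libraries (adjusted p = 0.00595), a call lost without chow replicate 1 (adjusted p = 0.0577) and with the length offsets (adjusted p = 0.328). Pde1a fell, at 4.996, 5.02 and 6.01 CPM in HFHS and 7.80 and 7.999 CPM in chow libraries (adjusted p = 0.0161), and lost its call without HFHS replicate 1 (0.0589) or 2 (0.0619) and without chow replicate 2 (0.0552). Pde3b fell too, at 5.50, 4.45 and 4.26 CPM in HFHS and 6.66 and 8.50 CPM in chow libraries (adjusted p = 0.0116), a call lost without chow replicate 2 (0.115). Pde2a, Pde5a and Pde9a did not pass, with adjusted p of 0.731, 0.849 and 0.226.

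Factors known to act on the Nppa and Nppb genes were higher or did not pass. Of 25 tested, 14 rose, none fell and 11 did not pass (56.0% called, against 38.1% of all genes). Over all tested genes 19.4% rose. The median log2 fold change of the list was 0.31, and with the length offsets 10 of its genes rose and 1 fell. Tead1, which binds the M-CAT box, was at 178.6, 175.3 and 181.0 CPM in HFHS and 98.4 and 112.8 CPM in chow libraries (log2 fold change 0.76, adjusted p = 5.94e-06). With the length offsets it was 0.41 and still passed. Gata4, which binds the GATA motifs, was at 84.4, 82.9 and 82.5 CPM in HFHS and 54.2 and 58.1 CPM in chow libraries (log2 fold change 0.57, adjusted p = 5.59e-05). Myocd, the heart and smooth muscle coactivator of SRF, was at 39.9 to 40.7 CPM in HFHS and 19.5 and 22.9 CPM in chow libraries, and Mef2d at 150.8 to 152.6 CPM and 86.9 and 106.5 CPM. Nkx2-5, Tbx5 and Rest, the repressor of fetal heart genes, did not pass (adjusted p of 0.764, 0.184 and 0.141), though Nkx2-5 did with the exon length offsets (log2 fold change 0.39, adjusted p = 0.0143). In none of these 7 named factors did chow replicate 1 stand above the other libraries in the way that Nppa and Nppb did.

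Other genes that heart muscle raises under load were split. Of 16 tested, 6 rose, 2 fell and 8 did not pass (50.0% called, against 38.1% of all genes). The median log2 fold change was 0.37, or 0.16 when chow replicate 2 was left out. Myh7, the slow myosin heavy chain, was at 545.8, 773.8 and 520.2 CPM in HFHS and 207.3 and 190.3 CPM in chow libraries, apart from each other by diet. Nrap was at 694.2 to 847.6 CPM in HFHS and 378.7 and 307.6 CPM in chow libraries. Xirp2 was at 722.2 to 843.4 CPM in HFHS and 434.1 and 428.5 CPM in chow libraries, and Xirp1 at 177.0 to 183.3 CPM and 93.9 and 110.3 CPM. The 2 that fell were Csrp3 and Lgals3. Csrp3 was at 737.6 to 778.4 CPM in HFHS and 1036 and 1078 CPM in chow libraries (edgeR adjusted p = 5.10e-05). Lgals3 was at 1.94 to 2.66 CPM in HFHS and 4.39 and 5.28 CPM in chow libraries (edgeR adjusted p = 0.00192). Acta1 and Ankrd1, skeletal actin and a stretch-responsive titin partner, did not pass and shared the gap between the chow libraries. Acta1 was at 152.4, 228.5 and 198.8 CPM in HFHS and 184.9 and 58.8 CPM in chow libraries, and Ankrd1 at 1038, 1360 and 896.2 CPM in HFHS and 1007 and 490.5 CPM in chow libraries. Chow replicate 1 was at the level of the HFHS libraries for both genes, whereas for Nppa and Nppb it was above them. Without chow replicate 1, Acta1 was at a log2 fold change of 1.72 and Ankrd1 at 1.16. Without chow replicate 2, Acta1 was at 0.06. With the length offsets both passed, Acta1 at 1.00 (adjusted p = 0.0187) and Ankrd1 at 0.85 (adjusted p = 0.00756). Both also passed with limma-voom, with no filter on low counts and with a replicate block. Ankrd1 passed without HFHS replicate 3 too (adjusted p = 0.0415). Acta1 did not pass with DESeq2 (adjusted p = 0.439) or with total counts only (0.172). Nor did it pass without HFHS replicate 1 (adjusted p = 0.11), 2 (0.276) or 3 (0.188).

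**Figure D5:**
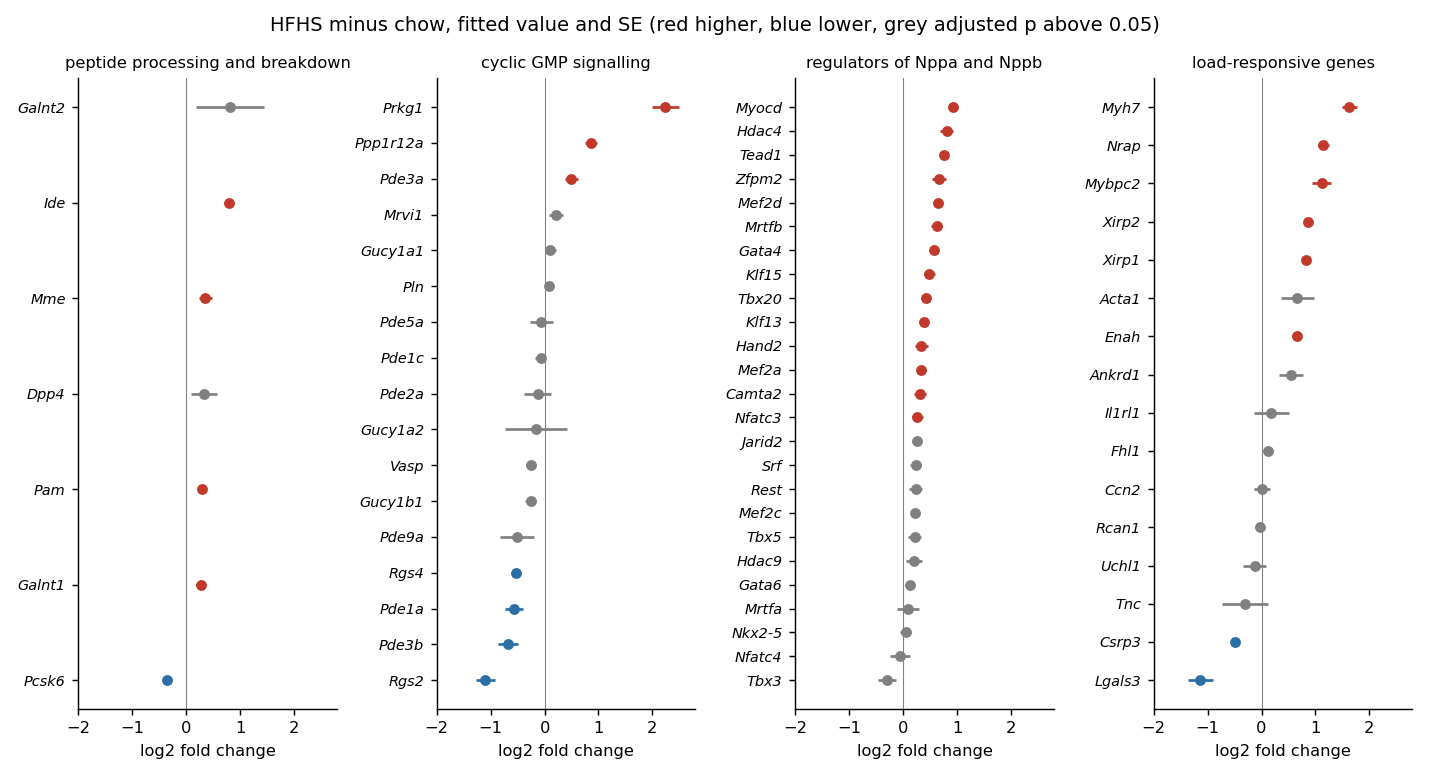
Fitted log2 fold change, HFHS minus chow, with its SE (horizontal axes) for the tested genes of each list (rows); red is higher and blue lower at an adjusted p of 0.05. In the list of factors acting on Nppa and Nppb, 14 of 25 are higher and none lower, against 19.4% higher and 18.7% lower of all tested genes. With the exon length offsets, which are not drawn here, 10 of the 25 are higher and 1 lower. The other lists hold genes of both directions.

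Likeness of pattern was measured as the root mean square difference of centred log2 CPM over the 5 libraries, among 10382 other genes averaging 4 CPM or more over the 5 libraries. The nearest to Nppa were 4732491K20Rik, Mest, Hspa2, Bcl6b and Bmp4, at differences of 0.237 to 0.254, and the nearest to Nppb were Cxcr4, Top2a, Mest, Gm33609 and Gnb3, at 0.21 to 0.267. Mest, an imprinted gene, was at 4.996, 5.10 and 5.61 CPM in HFHS and 9.96 and 4.83 CPM in chow libraries. Nppa and Nppb were 0.341 apart from each other, and 53 genes were nearer to Nppa than Nppb was. The nearest to Npr3 were Adra1a, Spen, Setbp1, Bcl9l and Nav2, at 0.1 to 0.158. Adra1a, an adrenergic receptor gene of heart muscle, was at 18.4, 17.0 and 21.6 CPM in HFHS and 6.77 and 9.72 CPM in chow libraries. Corin was nearest to Smyd1, Klf15, Slc27a1, Arid1a and Bcorl1, at 0.0316 to 0.0424. For Npr1 they were Commd10, Atp6v0d1, Lyrm4, Fbxo6 and Taldo1, for Npr2 Ccdc47, Cog6, Sf1, Brox and Dcaf6, and for Furin Zfp809, Midn, Mllt1 and Smg5, all within 0.047. The names describe these 5 libraries only.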

How the data were processed

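The values are raw counts per gene as deposited by the authors, 1 table per library. The tools listed in the submitters' processing notes are Trimmomatic 0.36, STAR 2.5.2b and Subread 1.5.2 (featureCounts), with the GRCm38 build. Their options and the strand setting are not stated there. Reads of overlapping or antisense genes may be shared; those overlapping the 7 genes had at most 23 counts. Symbols came from GENCODE M21, which held 49056 of the 49315 genes.

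Tests used edgeR 4.0.16 under R 4.3.3 (filterByExpr, TMM, glmQLFit, glmQLFTest on diet, Benjamini-Hochberg adjustment over all tested genes). Log2 fold changes are HFHS minus chow, with approximate standard errors from the F statistic. Ratios used an exact permutation test. A floor of 3 counts covers counting error only. Alternatives used DESeq2 1.42.0, limma 3.58.1 (voom), other scalings and filters, left-out libraries, a replicate block, and offsets from trends (mgcv 1.9.3) on exon length, without or with GC content. The fit was tested on simulated data. No pair of libraries agreed within sampling noise (chi-square per degree of freedom 2.64 to 62.5).

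The 7 genes, the lists and the tests were chosen with earlier results of these data known. Named were the 7 genes, genes within 100 kb of Nppa or Nppb, the 4 members of each list with the smallest p, fixed pathway and marker genes, and the 5 genes nearest in pattern. Marker genes beside a result, and some further list genes, were named after their values were seen. Some genes that this rule names are not reported here.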

Additional observations from a re-analysis of the deposited data

How the results depend on the processing

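The calls of Npr1, Npr2, Npr3 and Corin and their directions were the same under all 15 alternatives. Furin lost its call with exon length offsets (log2 fold change 0.23) and with exon length and GC offsets (0.20), and kept it otherwise. Nppa and Nppb passed with no filter on low counts (-0.63 and -0.49). Leaving out each library in turn gave log2 fold changes of -1.17 to 0.29 for Nppa and -1.07 to 0.55 for Nppb, both reversed without chow replicate 1; of -0.13 to 0.34 for the log2 ratio of Nppb to Nppa, reversed without HFHS replicate 3; and of -0.03 to 0.19 for that of Corin to Furin, reversed at -0.0283 without HFHS replicate 1 and at -0.0294 without chow replicate 1. A left-out chow library leaves a single chow library, which is then assumed to vary like the HFHS libraries. The 5 calls of the peptide processing list became 3 with total counts only and 2 with either offset, and 3 to 4 without single libraries. Across all genes, 4248 to 4929 passed without single libraries. Deviations of same-numbered libraries from their group had correlations of 0.0348 and 0.0258 across genes. The deviations of 2 chow libraries mirror each other and HFHS replicate 3 has no partner. This check therefore cannot tell whether the numbers pair the libraries. With a replicate block, Nppb passed at -0.49 (adjusted p = 0.0129), Nppa did not (adjusted p = 0.0617) and 5332 genes passed. Except for the offsets and the left-out libraries, the cause of these changes was not tested.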

Other observations

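Markers of the conduction system, whose cells keep some atrial features in the ventricle, were low but present, apart from Isl1, which had no count. Hcn4, the pacemaker channel gene, was at 6.81, 5.96 and 8.51 CPM in HFHS and 2.17 and 5.22 CPM in chow libraries (log2 fold change 0.95, adjusted p = 0.0184), a call lost without chow replicate 1 (adjusted p = 0.173) and without HFHS replicates 1 and 3 (adjusted p of 0.0521 and 0.0777). Cntn2, a marker of Purkinje fibres, was at 1.44, 0.503 and 1.01 CPM in HFHS and 0.217 and 0.222 CPM in chow libraries. Its edgeR adjusted p was 0.0126, against 0.067 when chow replicate 1 was left out and 0.0601 when chow replicate 2 was. Tbx3, the most abundant of the list, went the other way without passing (log2 fold change -0.30, edgeR adjusted p = 0.166). It was at 15.7, 14.1 and 17.6 CPM in HFHS and 15.2 and 23.8 CPM in chow libraries. With the exon length offsets Tbx3 was called lower, at -0.45 (adjusted p = 0.0449). Shox2 was also at a negative log2 fold change, -0.42, and did not pass (adjusted p = 0.578). The summed level of the 5 conduction markers overlapped between the diets, at 20.6 to 26.9 CPM in HFHS and 18.8 to 31.2 CPM in chow libraries.

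Markers of mesothelium, the outer lining of the heart, had few counts. Of 3 tested, 2 were called higher, while the summed level of the list overlapped between the diets. Msln, mesothelin, had 23, 21 and 23 counts in HFHS and 0 in both chow libraries (adjusted p = 4.70e-05), and Upk3b had 46, 26 and 24 counts in HFHS and 0 and 10 in chow libraries (adjusted p = 0.00267), a call that DESeq2 did not make (adjusted p = 0.088). Wt1, the most abundant of the list, went the other way and did not pass (log2 fold change -0.30, adjusted p = 0.293). With a replicate block Wt1 was called lower (adjusted p = 0.0383). All 5 markers summed to 8.98 to 11.8 CPM in HFHS and 7.09 and 9.35 CPM in chow libraries. The 4 lung markers summed to at most 0.139 CPM and the 4 thymus markers to at most 0.675 CPM. Macrophage markers, 8 of 8 lower, summed to 108.2 to 126.4 CPM in HFHS and 240.8 to 261.9 CPM in chow libraries. With DESeq2 or the exon length offsets 7 of the 8 were called lower, and without HFHS replicate 3 it was 6. Red blood cell markers, 5 of 5 lower, summed to 250.2 to 523.7 CPM in HFHS and 1484 to 1699 CPM in chow libraries.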
